A study of Mus musculus with 40 samples.

Results

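The microRNAs with a number of 1000 or above were followed in mouse blood over 4 ages. A row of the raw count table was taken as a member if it carried such a number and had more than 1 read in at least 20 of the 40 libraries. This left 103 of 1066 rows numbered 1000 and above, in a table of 1915 rows, and no pair of members held identical counts. The members were thus chosen by their read counts, over all ages together and not by a contrast between ages, and a member may have passed through some ages only.

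The libraries came from total blood of wild type C57BL/6J male mice drawn from the retro orbital sinus, with 10 libraries at each age (12 months, 13.5 months, 15 months and 16.5 months). The labels give the age alone, with no treatment or genotype contrast. They do not say which animals had been through a learning test, nor which columns of the table belong to 1 animal. The paper's methods place the draw at 12 months before any behavioural test, and the later draws after each round of tests. Earlier blood draws, and in trained mice the tests, therefore cannot be told apart from age. MicroRNAs are short RNAs that guide Argonaute proteins to messenger RNAs, mainly through the seed, bases 2 to 8 of the mature strand. Names are given in order of discovery, so that high numbers mark microRNAs annotated late, mostly from deep sequencing and mostly with few reads. Several were cut from RNAs that serve another purpose. A mirtron is a hairpin made of a short spliced intron, and some small nucleolar or Cajal body RNAs (snoRNAs and scaRNAs), which guide the modification of other RNAs, are processed into fragments of microRNA size.

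The members that carry the results are shown first, 5′ to 3′, with the seed in capitals, from RefSeq (GRCm38.p6). Of the 103 names 88 matched an entry there, and the other 15 were miR-1194, miR-1839-3p, miR-1927, miR-3074-1-3p, miR-3470a, miR-5099, miR-5107-5p, miR-5107-3p, miR-5134-5p, miR-6395, miR-6953-3p, miR-6957-5p, miR-6979-3p, miR-7042-5p and miR-8097. The first set holds miR-3969, the member whose reads differed most between ages, miR-3964, and miR-142a-5p, an abundant microRNA of blood cells that both resemble.
miR-3969: cCCUAAAGuagaaaucacua
miR-3964: aUAAGGUAgaaagcacuaaa
miR-142a-5p: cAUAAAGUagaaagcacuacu
The second set holds the other 7 members with more than 100 reads in at least 20 libraries.
miR-1198-5p: uAUGUGUUccuggcuggcuugg
miR-8114: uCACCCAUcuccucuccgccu
miR-1839-5p: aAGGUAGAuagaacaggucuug
miR-3968: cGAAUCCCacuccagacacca
miR-3074-5p: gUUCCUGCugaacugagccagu
miR-1964-3p: cCGACUUCugggcuccggcuuu
miR-1981-3p: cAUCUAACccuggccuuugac
The third set holds members called over age that are not listed above, where a sequence matched.
miR-1947-5p: aGGACGAGcuagcugagugcug
miR-5113: aCAGAGGAggagagagauccugu
miR-1954: aCUGCAGAgugagacccuguu
miR-1981-5p: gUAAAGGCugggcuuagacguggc
miR-1191b-5p: uCAGGCUAcagagcgagaaccu
miR-3068-3p: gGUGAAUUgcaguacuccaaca
miR-1968-5p: uGCAGCUGuuaaggaugguggacu
miR-6412: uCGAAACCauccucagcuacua
miR-7670-3p: uUCCCUUUcugaauaucuguaga

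miR-3969 lies at chr5:87595963-87595982 on the minus strand (GRCm38), outside annotated genes on that strand, and miR-142a-5p lies on chromosome 11. Set against bases 2 to 22 of the Mir142 hairpin, miR-3969 differed by 2 edits, 1 base present only in the hairpin and the substitution G15U (the hairpin's base first, position counted from 1 at the 5′ end of miR-3969). The differing bases stand in capitals in the pair below.
miR-3969: cccuaaaguagaaaUcacua
Mir142 hairpin, bases 2 to 22: cccAuaaaguagaaaGcacua
miR-3964, at chr15:29713337-29713356 on the minus strand and also outside genes of that strand, differed from bases 5 to 22 of the same hairpin by 3 edits, the substitution A5G and 2 bases at its end that the hairpin stretch lacks.
miR-3964: auaaGguagaaagcacuaAA
Mir142 hairpin, bases 5 to 22: auaaAguagaaagcacua
No other member had Mir142 as its nearest other hairpin within 3 edits.

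The libraries held 2469196 to 21386209 reads, most of them on miR-486, a red cell microRNA whose a and b copies the table counts in separate rows. Reads outside the miR-486 rows numbered 93002 to 1739959 per library. Their median was 855061.5 at 12 months, 698499 at 13.5 months, 267135 at 15 months and 597338 at 16.5 months, so that the precision was lowest at 15 months. A library of 16.5 months with 93002 reads outside miR-486 stood apart from the others in its connectivity, the summed correlation with all other libraries. Markers of blood cells differed widely within their lists. Beside miR-486a-5p the red cell marker miR-451a had a median of 39116.5 reads, miR-144-5p 142.5 and miR-144-3p 13. Of the myeloid markers miR-142a-5p had 26157, miR-223-3p 209, miR-142a-3p 59.5 and miR-223-5p 4, and of the lymphocyte markers miR-150-5p had 2549, miR-342-3p 196.5 and miR-155-5p 9. miR-223-5p was at 0 in 6 libraries. The platelet and endothelial markers miR-126a-5p and miR-126a-3p had 9 and 3.5. Of 10 markers of other tissues 3 were at 0 in all 40 libraries (miR-1a-3p, miR-206-3p and miR-208a-3p of muscle and heart), and miR-122-5p of liver and miR-124-3p and miR-9-5p of neurons never passed 4 reads. The remaining 4 were read, with medians of 27 for the muscle marker miR-133a-3p (0 to 233), 20.5 for miR-375-3p of the pancreas, 213 for miR-194-5p and 5118 for miR-192-5p of liver and gut (447 to 15268). The summed red cell markers without miR-486, in CPM of the reads outside miR-486, ran from 50065 to 184164 at 12 months, 35232 to 136352 at 13.5 months, 23408 to 171565 at 15 months, 19019 to 109290 at 16.5 months. Those of lymphocytes ran from 1734 to 6738 at 12 months, 2012 to 11288 at 13.5 months, 2184 to 6621 at 15 months, 2220 to 12312 at 16.5 months, and those of myeloid cells, which include miR-142a-5p, from 38531 to 56260 at 12 months, 26794 to 48709 at 13.5 months, 26528 to 67073 at 15 months, 24388 to 59044 at 16.5 months. Platelet and endothelial markers summed to 8.71 to 122 at 12 months, 5.45 to 65.9 at 13.5 months, 5.46 to 42.3 at 15 months, 0 to 35.6 at 16.5 months, and markers of other tissues to 5988 to 14226 at 12 months, 5719 to 12955 at 13.5 months, 7930 to 19996 at 15 months, 5118 to 12274 at 16.5 months. The myeloid sum was mostly miR-142a-5p, an abundant microRNA of blood cells, and does not measure myeloid cells alone. The ages overlapped in all 5 lists. The part of these cells in the results below was not tested, and in whole blood fewer cells of a type and less RNA per cell cannot be told apart. The column names also differ in form with age. They carry letters A to J at 12 and 16.5 months and A with a number at 13.5 months. At 15 months 3 columns carry B with a number and the others C with a number. What these forms stand for is not stated, and they cannot be told apart from age.

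Members were detected unevenly. Of the 103, 27 had more than 1 read in all 40 libraries, 47 in 30 to 39 and 29 in 20 to 29. A median of 99.5 members per library passed 1 read at 12 months, 97.5 at 13.5 months, 74.5 at 15 months and 92 at 16.5 months. The median count over the 40 libraries was below 10 for 64 members, from 10 to 100 for 31 and above 100 for 8. The last members inside the limit, miR-5116 and miR-8103, passed in 20 libraries, and miR-3058-5p, miR-5114, miR-7213-5p and miR-7667-5p stayed outside with 19. miR-5116 is in a UTR exon of Mmgt1 and had 0 to 10 reads (median 1.5). miR-8103 is in an intron of Osbpl7 and had 0 to 9 reads (median 1.5).

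**Figure D1:**
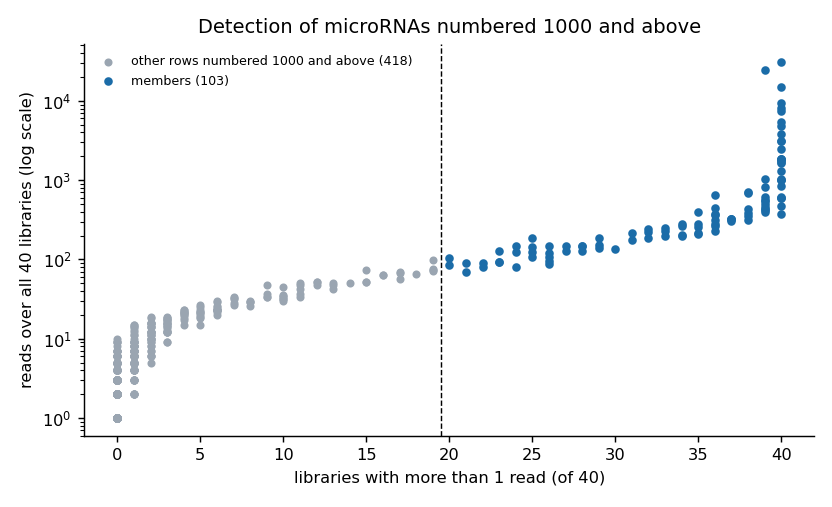
Reads summed over all 40 libraries (log axis) against the number of libraries with more than 1 read, for the 521 rows numbered 1000 and above with any read; the dashed line is the limit of the rule. The 103 members lie to the right of the line, and 27 of them reach all 40 libraries.

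The members took a small part of the reads. Their share of the reads outside miR-486 had a median of 0.538% at 12 months, 0.590% at 13.5 months, 0.529% at 15 months and 0.754% at 16.5 months. With the reads of miR-3969 left out the same medians were 0.488%, 0.577%, 0.523% and 0.433%, so that the age with the highest share became the one with the lowest. miR-3969 alone made up a median of 13.2% of all member reads at 12 months, 1.39% at 13.5 months, 1.06% at 15 months and 37.4% at 16.5 months. The 8 members with more than 100 reads in at least 20 libraries held 67.2% of all member reads. miR-3969 is among the 8 through 12 and 16.5 months alone. Its counts reached only 95 at 13.5 months and 22 at 15 months. Only 12 of the 103 averaged at least 0.01% of the reads outside miR-486.

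**Figure D2:**
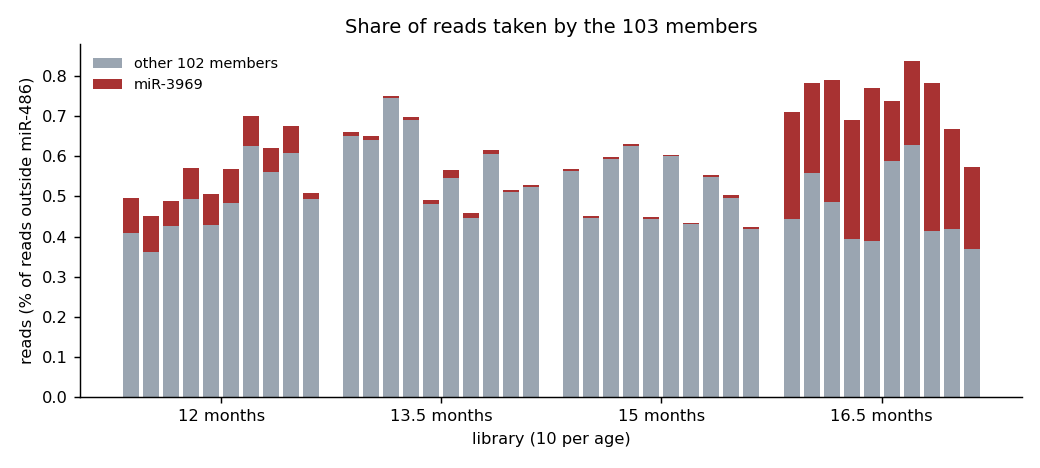
Share of the reads outside miR-486 (percent) taken by miR-3969 and by the other 102 members, as stacked bars, in each of 10 libraries per age. The miR-3969 portion is largest in the 16.5-month libraries, where it is 20.3% to 49.5% of the member reads, and is 0.0880% to 1.29% of them at 15 months.

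miR-3969 was the member with the widest change of level. It is described without a test, since its pattern was known when it was chosen. Its reads numbered 171 to 902 at 12 months (median 690.5), 38 to 95 at 13.5 months (median 58.5), 1 to 22 at 15 months (median 14.5) and 195 to 3258 at 16.5 months (median 1710.5). Levels are given as log2 CPM (counts scaled to a common library size) after scaling with TMM factors, and a library with 0 reads has a level of -2.48. miR-3969 lay between 2.90 and 5.78 log2 CPM at 12 months (median 5.51), 1.72 and 3.30 at 13.5 months (median 2.35), -1.06 and 2.12 at 15 months (median 1.72), and 6.67 and 7.92 at 16.5 months (median 7.29). The libraries of 16.5 months were above those of every other age. Those of 12 months overlapped with 13.5 months through 1 library at 2.90, and the other 9 lay at 5.18 or above. Levels of 13.5 and 15 months overlapped. The medians were higher at 12 and 16.5 months, whose columns carry a letter alone. They were lower at 13.5 and 15 months, whose columns carry a letter with a number. The part of the column form was not tested, and it cannot be told apart from age. The log2 difference was -2.99 ± 0.25 (SE, n = 10 per age) at 13.5 against 12 months, -3.83 ± 0.28 at 15 against 12 months, 1.96 ± 0.24 at 16.5 against 12 months and 5.79 ± 0.30 at 16.5 against 15 months.

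Within an age the reads of miR-3969 followed those of miR-142a-5p. At 16.5 months there were 59.0 to 66.3 reads of miR-3969 per 1000 of miR-142a-5p (median 63.4) in libraries whose miR-142a-5p count ran from 3275 to 51163. At 12 months 9 libraries had 16.04 to 18.03 per 1000 and the remaining one had 2.71, with 171 reads of miR-3969 and 63059 of miR-142a-5p. That library lay within the range of the 13.5-month libraries, which was 1.46 to 3.93 (median 2.52). At 15 months the ratio was 0.117 to 1.65 (median 1.15), and its lowest value rests on 1 read. Medians of the ratio thus stood 6.53-fold higher at 12 than at 13.5 months and 55.3-fold higher at 16.5 than at 15 months. The ranges of 12 months without the library that stands apart, of 13.5 months and of 16.5 months did not overlap, and those of 13.5 and 15 months did.

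The ratio was steadier than either count at 13.5 and 16.5 months, and at 12 months without the library that stands apart. At 15 months and over all 10 libraries of 12 months it was steadier than the reads of miR-3969 but not than those of miR-142a-5p. The coefficient of variation of the ratio at 16.5 months was 3.96%, against 61.1% for the reads of miR-3969 and 60.3% for those of miR-142a-5p. At 13.5 months it was 27.6%, against 35.3% and 49.0%. At 15 months it was 39.3%, against 48.7% and 38.6%, and over all 10 libraries of 12 months 29.2%, against 33.4% and 25.6%. At 12 months without the library that stands apart it was 3.93%, against 20.8% and 23.1%. The scatter around a constant proportion gave a chi-square per degree of freedom of 0.918 in those 9 libraries, 1.51 at 16.5 months and 1.37 at 15 months, where counting error alone gives values near 1. All 10 libraries of 12 months gave 79.8, and those of 13.5 months 5.51, where 2 libraries at 1.46 and 1.59 per 1000 lay below the other 8. Reads of an amplified library are not independent molecules, so the comparison covers counting error only. Among the 344 other tested rows miR-142a-5p had the smallest spread of the log2 ratio to miR-3969 within ages, with a median absolute deviation of 0.0817. The next was miR-103-3p with 0.158, and the median row had 0.422. The level of miR-3969 alone had 0.232 within ages. Counting error adds to the spread of rows with few reads, so the ranking favours abundant rows. It is a description over libraries that share depth and preparation.

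The level of miR-142a-5p itself differed little between ages. The 10 libraries of 12 months ran from 11.12 to 11.71 log2 CPM for miR-142a-5p (median 11.41), those of 13.5 months from 10.51 to 11.44 (median 11.12), those of 15 months from 10.67 to 11.83 (median 11.42) and those of 16.5 months from 10.67 to 11.86 (median 11.25). Every pair of ages overlapped, and the adjusted p over age was 0.103 in edgeR's quasi-likelihood test. Of the 5 pairs of ages 15 against 13.5 months was called (log2 fold change 0.36 ± 0.14 SE with n = 10 per age, edgeR adjusted p = 0.0466, higher than the earlier mean in 9 of 10 libraries). That call was lost in 7 of 13 alternatives, and with library totals the difference of miR-142a-5p changed sign, to -0.39. miR-3964, the other member that resembles Mir142, was far rarer, with 0 to 23 reads per library. It had 0.197 reads per 1000 of miR-142a-5p pooled over 12 months, 0.161 at 13.5 months, 0.131 at 15 months and 0.258 at 16.5 months. Levels of miR-3964 spanned -1.16 to 0.61 log2 CPM at 12 months, -1.97 to -0.35 at 13.5 months, -2.48 to -0.16 at 15 months and -2.48 to 0.49 at 16.5 months, with medians of -0.55, -1.05, -0.95 and -0.16. Its adjusted p over age was 0.0421 in edgeR and all ages overlapped. The call was lost with the block on the leading number of the column names (edgeR adjusted p = 0.0931), with any read in any library (0.113), at equal depth (0.52) and without the miR-486 rows (0.0524). The part of miR-142a-5p reads in the rows of miR-3969 and miR-3964 was not tested.

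**Figure D3:**
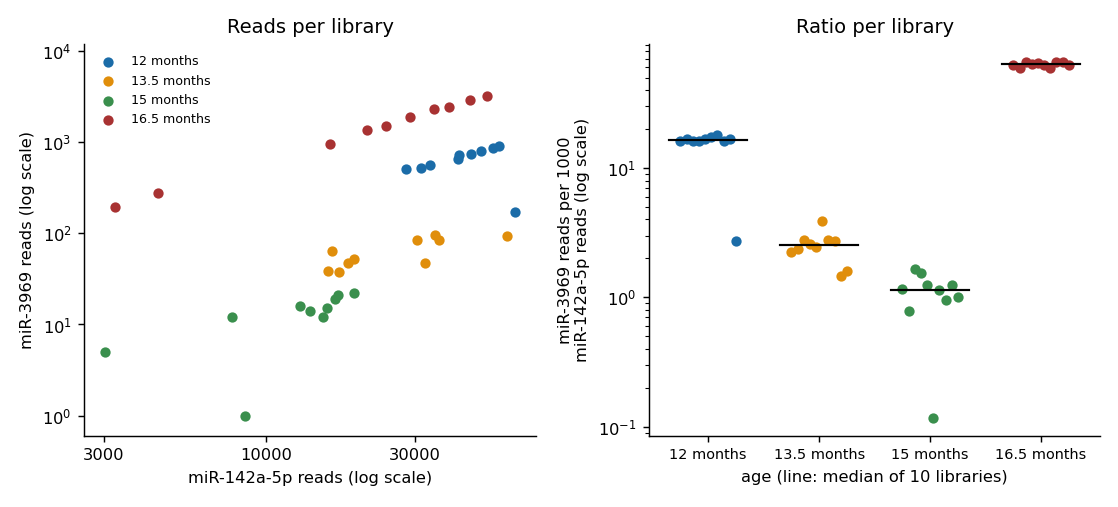
Left, reads of miR-3969 against reads of miR-142a-5p, both on log axes, 1 point per library; right, reads of miR-3969 per 1000 of miR-142a-5p (log axis) with the median of 10 libraries per age as a line. The points of each age follow a line of their own, at a median ratio of 16.5, 2.52, 1.15 and 63.4 from 12 to 16.5 months, with 1 library of 12 months at 2.71.

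The rows whose level was most like that of miR-3969 over the 40 libraries were other microRNAs. miR-374b-5p and miR-374c-5p, whose rows are identical, had a Spearman correlation of 0.774, followed by miR-340-3p at 0.643, miR-191-5p at 0.573 and miR-200c-3p and miR-132-3p at 0.572. miR-142a-5p stood at 0.152, rank 104 of 344. The correlations are over libraries of 4 ages that share their preparation, and are given as a description. miR-374b-5p had mean levels of 3.37, 3.24, 2.66 and 3.69 log2 CPM from 12 to 16.5 months, a span far below that of miR-3969, which is 5.83.

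Among the other 102 members 16 were called over the 4 ages in edgeR's quasi-likelihood test, at a Benjamini-Hochberg adjusted p under 0.05 over all 345 tested rows. Of all tested rows 39.1% were called. At an unadjusted p under 0.05 there were 20 of the 102 members and 48.4% of all rows. Fewer of the rare rows were called. Of members with a mean count under 10, 5 of 62 were called, beside 19.1% of all rows of that depth. Of the rows of that depth that are not members 17 of 53 were called (32.1%). The counts of members were 9 of 33 beside 40.2% at a mean count of 10 to 100, and 2 of 7 beside 59.3% above 100. Rows that are not members gave 40 of 89 (44.9%) and 61 of 100 (61.0%) at these depths. A member without a call may still differ between ages by less than these counts can show.

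The calls depended on the processing. Of the 16 members 4 kept their call over age in all alternatives run for them, and of 28 member comparisons called in a pair of ages 4 kept call and sign. Calls were mostly lost with scaling by library totals, with every row that had any read in the table (1016 rows to adjust over), with libraries thinned to an equal depth outside miR-486, and with a block on the number that leads the column names. Alternatives that lost a call over age are named beside each member, and those that lost a call in a pair of ages only in part. P-values below under an alternative are from edgeR and adjusted over all rows of that fit.

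The 16 were spread over the ages. Mean levels were highest at 12 months in 2 of them, at 13.5 months in 5, at 15 months in 5 and at 16.5 months in 4. The span between the highest and lowest age mean was 0.448 to 1.19 log2 units (median 0.830), and 3 of the 16 passed 1.

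**Figure D4:**
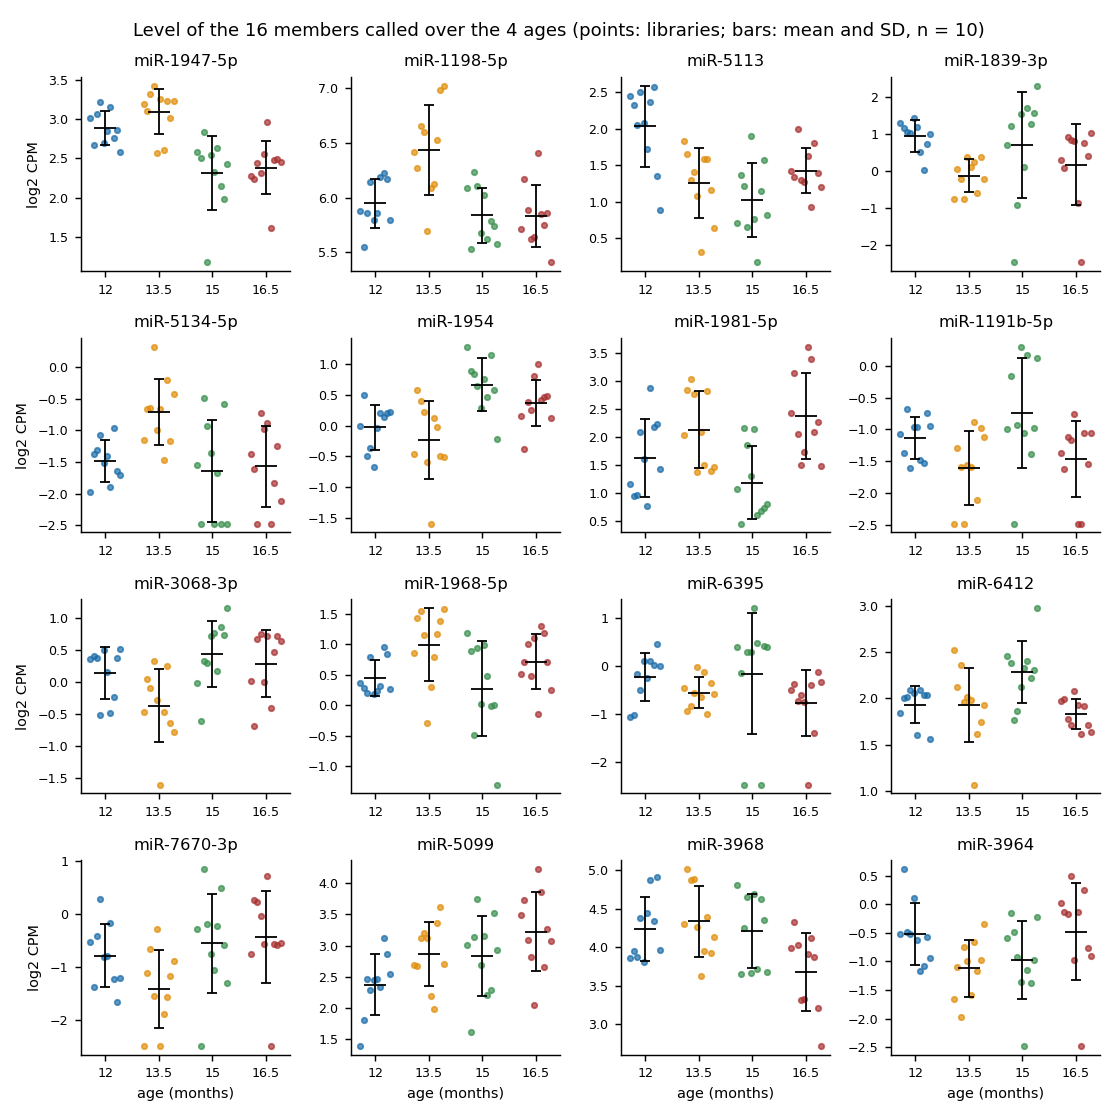
Level (log2 CPM) of each of the 16 called members by age in months; points are libraries, the bar and whiskers mean and SD of 10. The ranges of neighbouring ages overlap in every panel, and the highest mean stands at 13.5 or 15 months in 10 of the 16.

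At 13.5 against 12 months 5 of the 102 members were called, beside 15.7% of all rows, 3 higher (5.8% of all rows) and 2 lower (9.86%). At 15 against 12 months there were 3 (11.3%), 1 higher (3.19%) and 2 lower (8.12%). At 16.5 against 12 months there were 4 (13.9%), 1 higher (4.93%) and 3 lower (8.99%). Between 13.5 and 15 months 13 were called (27.0%), 8 higher at 15 months (12.8%) and 5 lower (14.2%). Between 15 and 16.5 months there were 3 (12.5%), 1 higher (7.25%) and 2 lower (5.22%). The direction of the calls changed most with scaling by library totals, in which most reads are miR-486. With library totals in place of TMM factors, the median of all rows moved to -0.80 at 15 against 12 months, -0.71 at 15 against 13.5 months and 0.58 at 16.5 against 15 months. The member calls then split into 0 higher and 33 lower, 0 and 38, and 26 and 0, and those of all rows into 2 and 180, 3 and 155, and 119 and 0. With median-ratio factors the split was 2 and 2 at 15 against 12 months and 11 and 5 at 15 against 13.5 months. Differences are therefore given relative to the TMM scale. Of these comparisons the first 3 share the libraries of 12 months, and the last 2 those of 15 months. The median log2 difference of the 102 was 0.04, 0.09, 0.05, 0.02 and -0.01 in the same order, beside -0.05, -0.07, -0.07, -0.01 and -0.0024 for all tested rows.

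The members highest at 13.5 months included both of those with the smallest p. miR-1947-5p, in an intron of Lmln at chr16:33105375-33105396, had the smallest p over age (adjusted p = 4.91e-05). miR-1947-5p lay between 2.58 and 3.22 log2 CPM at 12 months (median 2.85), 2.57 and 3.42 at 13.5 months (median 3.21), 1.18 and 2.84 at 15 months (median 2.47), and 1.61 and 2.97 at 16.5 months (median 2.45). It fell at 15 against 13.5 months (log2 fold change -0.77 ± 0.15 SE with n = 10 per age, edgeR adjusted p = 0.000123, lower than the earlier mean in 10 of 10 libraries). Against 12 months it was lower at 15 (-0.54 ± 0.15, edgeR adjusted p = 0.012) and at 16.5 months (-0.49 ± 0.15, edgeR adjusted p = 0.0226). The libraries of all pairs overlapped. With any read in any library both calls against 12 months were lost (edgeR adjusted p = 0.062 and 0.0909), and the later one also with library totals (0.0753).

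miR-1198-5p was the most read member, at 0.114% ± 0.0312 (SD, n = 40) of the reads outside miR-486. It lies in an intron of Gripap1, on chromosome X at 7807142-7807163, and had 100 to 3216 reads (median 617). The 10 libraries of 12 months ran from 5.55 to 6.23 log2 CPM for miR-1198-5p (median 5.87), those of 13.5 months from 5.70 to 7.02 (median 6.47), those of 15 months from 5.53 to 6.23 (median 5.76) and those of 16.5 months from 5.41 to 6.41 (median 5.80). It rose at 13.5 months (log2 fold change 0.53 ± 0.14 SE with n = 10 per age, edgeR adjusted p = 0.0053, higher than the earlier mean in 9 of 10 libraries) and fell at 15 months (log2 fold change -0.64 ± 0.14 SE with n = 10 per age, edgeR adjusted p = 0.000634, lower than the earlier mean in 10 of 10 libraries). The rise was not called with library totals (edgeR adjusted p = 0.0547). Its other arm, miR-1198-3p, was a member with 6.07 reads per 1000 of the 5p arm.

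miR-1968-5p in an intron of Grtp1 and miR-5134-5p, the partner of a mature sequence at an intron end of Ccnf, were also highest at 13.5 months, at low counts. Levels of miR-1968-5p spanned 0.18 to 0.95 log2 CPM at 12 months, -0.28 to 1.59 at 13.5 months, -1.30 to 1.18 at 15 months and -0.14 to 1.31 at 16.5 months, with medians of 0.30, 1.17, 0.25 and 0.72. It rose at 13.5 months (log2 fold change 0.73 ± 0.22 SE with n = 10 per age, edgeR adjusted p = 0.0183, higher than the earlier mean in 8 of 10 libraries) and fell at 15 months (-0.76 ± 0.26, edgeR adjusted p = 0.0235). For miR-1968-5p the call over age was lost with the block on the leading number (edgeR adjusted p = 0.0508), with any read in any library (0.0597) and at equal depth (0.83), where the rise was 0.23. miR-5134-5p had 0 to 14 reads (median 2) and median levels of -1.46, -0.66, -1.61 and -1.49 log2 CPM from 12 to 16.5 months. It rose at 13.5 months (log2 fold change 1.32 ± 0.34 SE with n = 10 per age, edgeR adjusted p = 0.00509, higher than the earlier mean in 10 of 10 libraries) and fell at 15 months (-1.45 ± 0.48, edgeR adjusted p = 0.0203). When the libraries were thinned to an equal depth outside miR-486 both differences of miR-5134-5p changed sign, to -0.41 and 0.02, and its adjusted p over age was 0.964.

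miR-3968 was highest at 13.5 months with little difference to 12 and 15. It lies at chr11:115447969-115447989 on the minus strand, opposite Trim80, and took 0.0314% ± 0.0118 (SD, n = 40) of the reads outside miR-486. Levels of miR-3968 spanned 3.81 to 4.91 log2 CPM at 12 months, 3.63 to 5.01 at 13.5 months, 3.66 to 4.81 at 15 months and 2.72 to 4.33 at 16.5 months, with medians of 4.16, 4.28, 4.30 and 3.89. Its lowest mean was at 16.5 months, all ages overlapped, and it was called over age (adjusted p = 0.0358, edgeR) but in none of the 5 pairs of ages. At equal depth the adjusted p over age of miR-3968 was 0.0748.

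A second group was low at 13.5 months and rose to 15 months. miR-1839-3p is the rarer arm of a hairpin in an exon of the noncoding gene 2900076A07Rik and had 68.6 reads per 1000 of miR-1839-5p. miR-1839-3p lay between 0.02 and 1.43 log2 CPM at 12 months (median 1.04), -0.77 and 0.38 at 13.5 months (median -0.08), -2.48 and 2.30 at 15 months (median 1.25), and -2.48 and 1.04 at 16.5 months (median 0.57). It fell at 13.5 months (log2 fold change -1.24 ± 0.29 SE with n = 10 per age, edgeR adjusted p = 0.0018, lower than the earlier mean in 10 of 10 libraries) and rose at 15 months (log2 fold change 1.52 ± 0.31 SE with n = 10 per age, edgeR adjusted p = 0.000287, higher than the earlier mean in 8 of 10 libraries), where the libraries spread most. With library totals miR-1839-3p was not called over age (edgeR adjusted p = 0.053) nor in either pair (0.0547 and 0.0912), and at equal depth not at 13.5 months (0.0795). The abundant arm miR-1839-5p was not called (edgeR adjusted p = 0.435), and the difference between the arms was not tested. miR-1954 lies in an intron of Eng, the gene of the endothelial receptor endoglin. It rose at 15 against 13.5 months (log2 fold change 0.93 ± 0.25 SE with n = 10 per age, edgeR adjusted p = 0.00407, higher than the earlier mean in 10 of 10 libraries) and against 12 months (0.84 ± 0.24, edgeR adjusted p = 0.0148), with 1 to 23 reads (median 10). Levels of miR-1954 spanned -0.67 to 0.51 log2 CPM at 12 months, -1.60 to 0.58 at 13.5 months, -0.22 to 1.28 at 15 months and -0.39 to 1.0 at 16.5 months, with medians of 0.06, -0.25, 0.70 and 0.40. Its ages overlapped. With library totals the differences of miR-1954 shrank to 0.20 and 0.11 and its edgeR adjusted p over age was 0.535. The call over age was also lost at equal depth (edgeR adjusted p = 0.679) and with any read in any library (0.0524). Without the 3 libraries of 15 months whose columns carry the letter B the difference to 12 months was 0.69 and not called (edgeR adjusted p = 0.102).

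The next 4 members, all rarer, rose between the same ages. miR-3068-3p, whose hairpin is itself annotated as a snoRNA gene on chromosome 12, had 1 to 29 reads (median 9) and a log2 fold change of 0.90 ± 0.27 (edgeR adjusted p = 0.00991), with median levels of 0.36, -0.37, 0.52 and 0.55 log2 CPM from 12 to 16.5 months. With library totals its difference was 0.21, and its call over age was lost (edgeR adjusted p = 0.147), as it was at equal depth (0.513) and with any read in any library (0.103). miR-1191b-5p, in an intron of Nfic, had 0 to 10 reads (median 2) and 1.53 ± 0.40 (edgeR adjusted p = 0.00324), with median levels of -1.02, -1.57, -0.95 and -1.27 log2 CPM from 12 to 16.5 months. Its call over age was lost with library totals (edgeR adjusted p = 0.345), where the difference was 0.87, and with any read in any library (0.0746). miR-7670-3p, in a UTR exon of Ubn2, had 0 to 15 reads (median 4.5) and 1.19 ± 0.45 (edgeR adjusted p = 0.0447), with median levels of -0.80, -1.35, -0.43 and -0.55 log2 CPM from 12 to 16.5 months. This difference was not called in 7 of 12 alternatives, among them the block on the leading number (edgeR adjusted p = 0.0501), and was smallest with library totals (0.51). Over age the call of miR-7670-3p was lost at equal depth (edgeR adjusted p = 0.757) and with any read in any library (0.065). The 4 members share low counts at the shallowest age, with 0 reads in some libraries of 15 months for miR-1191b-5p, miR-7670-3p and miR-6395. miR-6395 had 0 to 20 reads (median 6), rose by 0.98 ± 0.32 (edgeR adjusted p = 0.0203) and was lower again at 16.5 than at 15 months (-1.01 ± 0.34, edgeR adjusted p = 0.039). Of miR-6395 the libraries had median levels of -0.09, -0.58, 0.34 and -0.56 log2 CPM from 12 to 16.5 months. Its later difference changed sign at equal depth, to 0.30, and was not called in 5 further alternatives. Its rise shrank to 0.26 with library totals. The call of miR-6395 over age was lost with the block on the leading number (edgeR adjusted p = 0.0508), library totals (0.329), any read in any library (0.0898) and equal depth (0.31).

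miR-6412, at chr10:122648412-122648433 outside genes of its strand, was highest at 15 months. The 10 libraries of 12 months ran from 1.56 to 2.09 log2 CPM for miR-6412 (median 2.02), those of 13.5 months from 1.07 to 2.52 (median 1.97), those of 15 months from 1.77 to 2.97 (median 2.31) and those of 16.5 months from 1.61 to 2.08 (median 1.85). It fell at 16.5 months (log2 fold change -0.51 ± 0.15 SE with n = 10 per age, edgeR adjusted p = 0.022, lower than the earlier mean in 10 of 10 libraries), and with library totals in place of TMM factors the difference was 0.04. The call over age was lost in 6 of 11 alternatives, with edgeR adjusted p-values of 0.0533 with the block on the leading number, 0.0595 without the miR-486 rows, 0.0662 with identical rows entered once, 0.31 at equal depth, 0.313 with any read in any library and 0.463 with library totals.

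miR-5113, with miR-1839-3p above, was 1 of the 2 called members whose mean was highest at 12 months. It lies in a UTR exon of Tnrc6b, a gene of the silencing complex that microRNAs guide, at chr15:80940049-80940071. Levels of miR-5113 spanned 0.88 to 2.58 log2 CPM at 12 months, 0.30 to 1.83 at 13.5 months, 0.16 to 1.90 at 15 months and 0.93 to 2.0 at 16.5 months, with medians of 2.20, 1.35, 0.98 and 1.36. It was lower at 13.5 months (log2 fold change -0.83 ± 0.21 SE with n = 10 per age, edgeR adjusted p = 0.00364, lower than the earlier mean in 10 of 10 libraries), at 15 months (-1.07 ± 0.23, edgeR adjusted p = 0.0015) and at 16.5 months (-0.68 ± 0.21, edgeR adjusted p = 0.0286). The 12-month libraries overlapped with each later age, and 1 of them lay at 0.88. With library totals and at equal depth the calls of miR-5113 at 13.5 months (edgeR adjusted p = 0.0799 and 0.409) and at 16.5 months (0.0719 and 0.0582) were lost, the latter also with any read in any library (0.056).

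Among the called members miR-1981-5p and miR-5099 were, with miR-3964 and miR-7670-3p, highest at 16.5 months. miR-1981-5p is the arm at the first base of an intron of Marc2 that is 82 nt long. miR-1981-5p lay between 0.77 and 2.88 log2 CPM at 12 months (median 1.52), 1.37 and 3.04 at 13.5 months (median 2.06), 0.46 and 2.16 at 15 months (median 0.95), and 1.49 and 3.61 at 16.5 months (median 2.18). It fell from 13.5 to 15 months (log2 fold change -1.12 ± 0.34 SE with n = 10 per age, edgeR adjusted p = 0.0109, lower than the earlier mean in 8 of 10 libraries) and rose from 15 to 16.5 months (log2 fold change 1.30 ± 0.35 SE with n = 10 per age, edgeR adjusted p = 0.00893, higher than the earlier mean in 10 of 10 libraries). At equal depth the fall was not called (edgeR adjusted p = 0.0951). The other arm of the same intron, miR-1981-3p, was read more often, with 344 reads of the 5p arm per 1000 of the 3p arm, and was not called (edgeR adjusted p = 0.409). The 10 libraries of 12 months ran from 2.93 to 3.94 log2 CPM for miR-1981-3p (median 3.55), those of 13.5 months from 2.71 to 3.88 (median 3.70), those of 15 months from 2.54 to 4.07 (median 3.15) and those of 16.5 months from 2.84 to 4.08 (median 3.39). A difference in response between the arms was not tested. miR-5099 had 12 to 204 reads (median 60) and was higher at 16.5 than at 12 months (log2 fold change 0.88 ± 0.25 SE with n = 10 per age, edgeR adjusted p = 0.0147, higher than the earlier mean in 9 of 10 libraries). miR-5099 lay between 1.39 and 3.12 log2 CPM at 12 months (median 2.45), 1.97 and 3.62 at 13.5 months (median 2.91), 1.61 and 3.74 at 15 months (median 2.97), and 2.05 and 4.23 at 16.5 months (median 3.18). The ages overlapped. Its call over age was lost with any read in any library (edgeR adjusted p = 0.0525) and with 1 factor of unwanted variation (0.0561), and the difference to 12 months was not called with library totals (0.65, edgeR adjusted p = 0.0895).

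The last 3 members were called in a pair of ages but not over the 4. miR-7019-3p, at an intron end of Pink1, was lower at 16.5 than at 12 months (log2 fold change -1.0 ± 0.33 SE with n = 10 per age, edgeR adjusted p = 0.0355, lower than the earlier mean in 9 of 10 libraries). Levels of miR-7019-3p spanned 0.11 to 1.76 log2 CPM at 12 months, -0.29 to 1.43 at 13.5 months, -1.67 to 1.38 at 15 months and -1.24 to 1.0 at 16.5 months, with medians of 0.82, 0.89, 0.77 and 0.15. At equal depth its difference was -0.64 and not called (edgeR adjusted p = 0.537). miR-1843a-5p and miR-1843b-5p rose at 15 against 13.5 months by 0.57 ± 0.18 and 0.55 ± 0.18 (edgeR adjusted p = 0.0182 and 0.0215). With library totals both changed sign, to -0.11 and -0.12, and both calls were lost at equal depth (edgeR adjusted p = 0.409 and 0.115), with any read in any library (0.152 and 0.177) and without the miR-486 rows (0.057 and 0.066). Their rows held equal counts in 31 of 40 libraries and differed by at most 2 reads in the others. miR-1843b-5p is found whole in the hairpin of miR-1843a, the mature sequences being offset by 1 base, so that the reads of the 2 rows cannot be told apart.
miR-1843a-5p: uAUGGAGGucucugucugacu
miR-1843b-5p: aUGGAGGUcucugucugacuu

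The other abundant members gave no call. miR-8114, in a UTR exon of the glutamine synthetase gene Glul at chr1:153899989-153900009, took 0.0607% ± 0.0235 (SD, n = 40) of the reads outside miR-486. Levels of miR-8114 spanned 3.89 to 5.82 log2 CPM at 12 months, 4.77 to 5.71 at 13.5 months, 4.37 to 6.35 at 15 months and 4.01 to 5.69 at 16.5 months, with medians of 4.97, 5.53, 4.97 and 4.57. Its edgeR adjusted p over age was 0.196. miR-1839-5p took 0.0348% ± 0.00829 (SD, n = 40) and its age means spanned 0.288 log2 units. miR-1964-3p, in an intron of Zfp84, took 0.0221% ± 0.0086 (SD, n = 40) with an edgeR adjusted p of 0.417. miR-1843b-3p, inside Scarna3a, took 0.0169% ± 0.0101 (SD, n = 40), and its libraries ranged from 16 to 291 reads. miR-1306-5p, in the coding sequence of Dgcr8, which encodes the partner of Drosha in microRNA processing, took 0.0101% ± 0.00423 (SD, n = 40) with an edgeR adjusted p of 0.869.

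miR-3074-5p was the steadiest of them. miR-3074-5p lay between 3.68 and 4.41 log2 CPM at 12 months (median 4.09), 3.75 and 4.30 at 13.5 months (median 3.98), 3.89 and 4.36 at 15 months (median 4.13), and 3.47 and 4.17 at 16.5 months (median 4.03). Its age means spanned 0.139 log2 units (edgeR adjusted p = 0.845). It is antisense to miR-24, on chromosomes 8 and 13, and 7361 reads stood in its row beside 9230 in that of miR-24-3p. Pooled over an age it had 699 reads per 1000 of miR-24-3p at 12 months, 1011 at 13.5 months, 875 at 15 months and 731 at 16.5 months. Single libraries ran from 408 to 1453 at 12 months (median 820) and 678 to 2336 at 13.5 months (median 991). They ran from 547 to 2214 at 15 months (median 925) and 494 to 1750 at 16.5 months (median 972), and all ages overlapped.
miR-3074-5p: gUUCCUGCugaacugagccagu
miR-24-3p: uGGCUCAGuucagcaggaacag

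**Figure D5:**
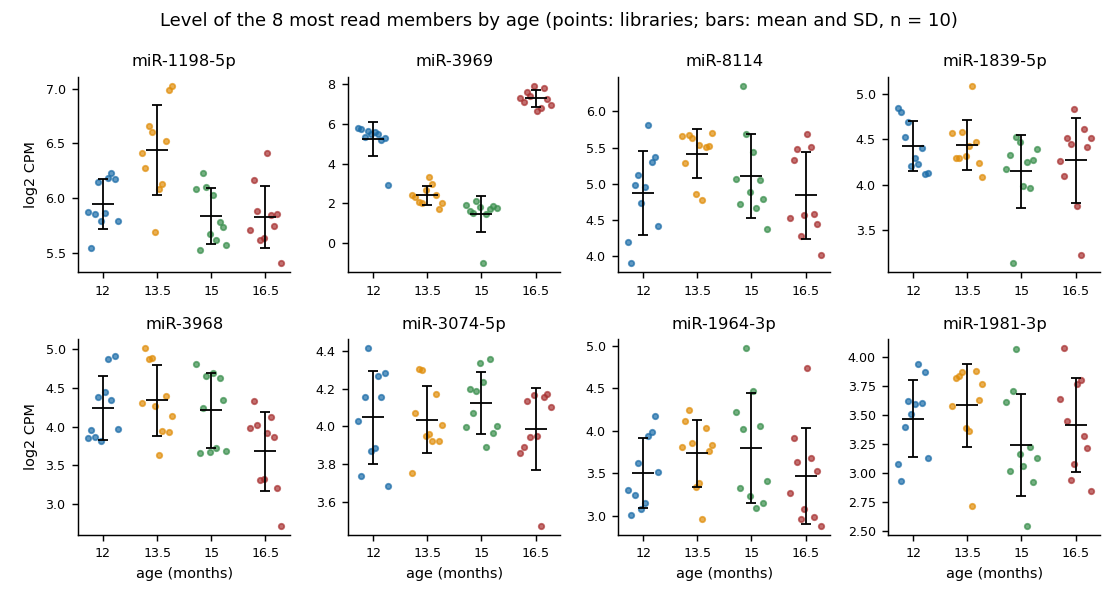
Level (log2 CPM) of the 8 members with more than 100 reads in at least 20 libraries, by age in months; points are libraries, the bar and whiskers mean and SD of 10. The age means of miR-3969 span 5.83 log2 units, and those of miR-3074-5p span 0.139. The limit of 100 reads was passed by miR-3969 at 12 and 16.5 months only.

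Position was not used in the choice, but the number was, and high numbers mark microRNAs annotated late. The features of position below are therefore not independent of the choice. Of the 88 with a sequence, 15 (17.0%) lay with their 3′ end within 2 nt of the end of an intron, beside 3 of 206 other tested rows (1.46%). All 15 were 3p arms, and 13 of them ended in the bases CAG or in UAG, which close an intron at its acceptor site. Of these introns 5 were shorter than 100 nt, those of miR-1981-3p in Marc2 (82 nt), miR-1982-3p in Oaz1 (74 nt), miR-3103-3p in BC017158 (89 nt), miR-6988-3p in Syvn1 (82 nt) and miR-7068-3p in Cherp (74 nt). Others ended much longer introns, as miR-6899-3p did in Klf7 (36269 nt). Their median counts ran from 2 to 106 reads, and none of the 15 was called over age in edgeR, beside 15.7% of the 102 members and 39.1% of all tested rows. At an unadjusted p under 0.05 there was 1. Of the 15, 10 had a mean count under 10, a depth at which 19.1% of all rows were called. miR-7019-3p, above, was called in a pair of ages. Examples show the shared end.
miR-1982-3p: uCUCACCCuauguucucccacag
miR-3103-3p: uAACCUCUgauccuucccacag
miR-6988-3p: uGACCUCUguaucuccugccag
miR-7068-3p: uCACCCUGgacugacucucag
miR-6899-3p: uUGUCCUUcugugucuucugcag
miR-7015-3p: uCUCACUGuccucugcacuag
The last bases of these 6 stand at the intron's end.

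Of the 88, 9 (10.2%) matched an annotated snoRNA, scaRNA or transfer RNA gene, beside 2 of 206 other rows (0.971%). They were the 4 mature sequences of miR-1843a and miR-1843b in Scarna3b and Scarna3a, miR-3084-3p in Snora19, miR-3068-3p, miR-1839-5p, miR-3535 and miR-1983, which lies in an isoleucine transfer RNA gene. Their median counts ran from 3 to 244.5 reads, and miR-3068-3p was the one called over age, which is 11.1% of the 9, beside 15.7% of the 102 members and 39.1% of all tested rows. An exon of another gene on the same strand held 31 members (35.2%, beside 32.0% of the other rows), an intron and no exon held 44 (50.0%, beside 44.2%) and 13 lay outside genes (14.8%, beside 23.8%). A member counted as exonic if an exon of any annotated transcript covered it. Of the members at intron ends, miR-1982-3p, miR-3077-3p, miR-3082-3p, miR-7019-3p and miR-7068-3p are therefore counted among the exonic ones too. For miR-3068-3p the exon is that of its own hairpin gene. Of the 24 in exons of protein-coding genes miR-5113 and miR-7670-3p were called over age, 8.33% of the 24, beside the same 15.7% and 39.1%. The median G+C content was 54.5% in members and 47.8% in the other rows, and miR-5126 was made of G and C alone.

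Seeds were seldom shared. Of the 88 members 3 (3.41%) had the seed of another tested row, beside 85 of 206 others (41.3%). miR-3473d had the seed of miR-674-5p, miR-6240 that of miR-330-3p, and miR-7670-3p that of miR-204-5p and miR-211-5p.
miR-3473d: cCACUGAGccacuuuccagcccuu
miR-674-5p: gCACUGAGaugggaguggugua
miR-6240: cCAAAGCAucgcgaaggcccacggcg
miR-330-3p: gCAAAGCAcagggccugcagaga
miR-7670-3p: uUCCCUUUcugaauaucuguaga
miR-204-5p: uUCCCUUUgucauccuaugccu
miR-211-5p: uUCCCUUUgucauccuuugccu
Only the seed was compared here and, as with position, the comparison is not independent of the choice by number. miR-3473d, in an intron of Ddx19b, had 5 to 107 reads (median 39.5) and an edgeR adjusted p of 0.129, and miR-674-5p had 5 to 94 reads (median 29) and 0.846. miR-6240 had 2 to 31 reads (median 13.5) and 0.568, and miR-330-3p had 3 to 46 reads (median 15) and 0.329. miR-204-5p had 1 to 583 reads (median 8.5) and median levels of 0.23, 0.25, 0.55 and -0.26 log2 CPM from 12 to 16.5 months, and 1 library of 12 months with 583 reads stood at 4.65 log2 CPM. No difference between ages is given for it, as that library lay far above the others of its age, which had a median of 22.5 reads with it included.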

How the data were processed

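Small RNA was sequenced from total blood at 4 ages, 10 libraries each. The authors trimmed reads with cutadapt, counted them per mature microRNA with miRDeep2 on mm10 and miRBase, and deposited the raw counts used here. The table of normalised counts was not used, because each of its columns is a constant multiple of the raw one. Columns were assigned to ages by name. The 345 rows with more than 1 read in at least 20 of 40 libraries were tested with edgeR 4.0.16 (quasi-likelihood F test, TMM factors, R 4.3.3), in 1 fit of all 40 libraries with age as the factor. P-values were adjusted by the Benjamini-Hochberg method over all 345 rows, with a threshold of 0.05. Levels are log2 CPM with a prior count of 2. The SE of a fold change was its size divided by the square root of F. The study itself kept rows with more than 100 reads, a limit tried here as an alternative. The fit was tested on simulated data, in 10 runs with 60 rows changed by 1 log2 unit at 16.5 against 12 months. At a mean count under 10 it recovered 37.4% of the changes, and 7.5% of its calls there were false. Recovery was 73.4% at a mean count of 10 to 100 and 92.2% above 100, with 3.55% and 2.35% of calls false.

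The members and lists were chosen with earlier results of these data known. Named members were those with more than 100 reads in at least 20 libraries, every member called over age, the 5 with the highest share, those at the limit, those sharing a seed, and at most 10 overlapping another gene. The members called in 1 pair of ages only and the positions at intron ends were described after their values were seen. Mature sequences and positions came from RefSeq GRCm38.p6, and genes from GENCODE of the same build. Depth ran from 2469196 to 21386209 reads per library. Replicates are separate libraries. The study collected blood from its mice repeatedly, so libraries of different ages may share animals, which the fit without a block does not take into account. The labels do not say which do, and column names were not tied to replicate numbers. All 180 pairs of libraries within ages differed beyond sampling noise (chi-square per degree of freedom of at least 11.63). The closing section gives the alternatives: other scaling, filters, DESeq2 1.42.0, 1 factor of unwanted variation, equal depth, rows left out and libraries left out.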

Additional observations from a re-analysis of the deposited data

Results flagged for a closer look

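In 14 of 116 groups of 10 libraries, 1 library lay far from the other 9, by a gap to its nearest neighbour above the 95% critical value of Dixon's test. That limit is set to be passed by chance in about 1 in 20 groups of normally spread values. The groups share libraries and many hold low counts, so whether 14 exceeds chance was not tested. Of these, 4 concern miR-3969, by its level or its ratio to miR-142a-5p. At 12 months a library stood at 2.90 log2 CPM and at 2.71 reads per 1000 of miR-142a-5p, while the other 9 had 16.04 to 18.03. At 15 months a library with 1 read stood at -1.06 log2 CPM. At 13.5 months the highest ratio, 3.93 per 1000, was apart from the rest. Without the 12-month library above, the mean level of miR-3969 at 12 months was 5.51 ± 0.206 (SD, n = 9).

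Among the abundant members, miR-1839-5p had a library at 5.09 log2 CPM at 13.5 months and one at 3.13 at 15 months. miR-1981-3p had one at 2.71 at 13.5 months, and miR-3074-5p one at 3.47 at 16.5 months. miR-1947-5p had a library at 1.18 at 15 months, on the side of its fall. The other cases concern members with few reads. miR-7670-3p at 16.5 months and miR-3964 at 15 and 16.5 months had a library with 0 reads, at -2.48 log2 CPM. miR-5116 had a library at -0.22 at 15 months and miR-6240 one at 1.86 at 16.5 months.

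Outside the rule, 418 rows numbered 1000 and above had at least 1 read, and 239 of them had more than 3 reads over all libraries. The highest total was 97 reads, in miR-5114, which passed 1 read in 19 libraries, and no single count exceeded 8.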

How the results depend on the processing

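The count of called members, 16 of 102 over age and 5, 3, 4, 13 and 3 in the pairs (13.5, 15 and 16.5 against 12, 15 against 13.5, 16.5 against 15 months), moved most with the scaling. Of all tested rows 39.1% were called over age, and the share of all rows in each fit stands beside the members here. Library totals alone gave 38 over age (52.2% of all rows) and 1, 33, 2, 38 and 26 (3.77%, 52.8%, 5.22%, 45.8% and 34.5%). Median-ratio factors gave 19 over age (41.4%) and 5, 4, 4, 16 and 3 (15.9%, 11.9%, 14.8%, 28.1% and 12.5%). A factor of unwanted variation gave 25 over age (51.0%) and 8, 8, 9, 20 and 10 (23.2%, 22.9%, 21.7%, 35.9% and 21.4%), split into 3 higher and 5 lower, 3 and 5, 1 and 8, 12 and 8, and 1 and 9. With more than 100 reads in 20 libraries required, 7 of the 102 members stayed in and 2 were called over age (61.0% of the rows in that fit), with 1, 0, 0, 1 and 0 in the pairs (29.5%, 23.8%, 23.8%, 47.6% and 28.6%). In that fit fewer members were tested. With any read in any library the counts were 7 over age (11.1% of 1016 rows) and 4, 1, 2, 6 and 1 (4.33%, 3.05%, 2.85%, 6.79% and 2.07%). At equal depth outside miR-486, where fewer reads entered, they were 8 over age (23.8%) and 3, 2, 2, 5 and 3 (9.57%, 7.54%, 6.38%, 15.7% and 6.09%). DESeq2 called 21 over age (44.3%) and 5 at 15 against 12 months (13.9%), and a fit of the 2 ages alone called 1 at 16.5 against 15 months (13.3%). For the other moves the cause was not tested.

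Of the 16 members called over age, 4 kept their call in every alternative run for them (miR-1198-5p, miR-1947-5p, miR-1981-5p and miR-5113). Of 28 member comparisons called in a pair of ages, 4 kept call and sign in every alternative run for them, those of miR-1198-5p and miR-1947-5p at 15 against 13.5 months, miR-1981-5p at 16.5 against 15 months and miR-5113 at 15 against 12 months. Differences changed sign in miR-5134-5p at equal depth (-0.41 at 13.5 against 12 and 0.024 at 15 against 13.5 months), in miR-6395 at equal depth (0.30 at 16.5 against 15 months), and with library totals in miR-6412 (0.042 at 16.5 against 15 months) and in miR-1843a-5p, miR-1843b-5p and miR-142a-5p (-0.11, -0.12 and -0.39 at 15 against 13.5 months). The log2 difference of miR-3969 kept its sign in all fits, from -3.04 to -2.92 at 13.5 against 12 months and from 5.61 to 6.41 at 16.5 against 15 months. Its level on the scale of reads outside miR-486 was 9.33, 6.51, 5.58 and 11.3 log2 CPM from 12 to 16.5 months.

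A block on the labels' replicate numbers was not possible, because the columns do not carry them. The columns carry a leading number that recurs at all ages, and the study drew blood repeatedly from its mice, but no source used here says that the number is the mouse. Deviations from the age means had a median correlation of 0.0249 between libraries with the same number, with 23 of 60 pairs above 0.1. Between libraries with different numbers the median was -0.000622, with 193 of 540 pairs above 0.1. The correlations ran from -0.604 to 0.599 and from -0.599 to 0.594, too wide to decide whether the number is the mouse. As an alternative chosen after seeing the data, a replicate block by that number gave 12 calls over age (34.5% of all rows) and 5, 3, 4, 12 and 2. It ended the calls over age of miR-1968-5p, miR-3964, miR-6395 and miR-6412 (edgeR adjusted p = 0.0508, 0.0931, 0.0508 and 0.0533), and in the pairs those of miR-6395 at 16.5 against 15 months (0.069) and miR-7670-3p at 15 against 13.5 months (0.0501). Also added afterwards, leaving out the library of low connectivity gave 16 over age (39.7%). Leaving out the 3 libraries of 15 months whose columns carry the letter B gave 19 (37.1%). Depth limits the members with few reads most, above all at 15 months.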
